A study of Homo sapiens with 6 samples.

Results

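AP-1 and the immediate-early genes were followed through 10 members chosen by gene symbol: FOS, FOSB, FOSL1, FOSL2, JUN, JUNB and JUND, which encode subunits of AP-1, EGR1 and EGR2, which encode zinc finger factors of the early growth response family, and IER3, a stress-inducible regulator of cell survival. Each of the 10 was found on 1 locus of the 74852 in the table, and all 10 were among the 18849 loci tested. With SAM68 depleted, EGR1 fell to 32.69% and FOS to 49.7% of their mean level in control cells, whereas JUN was at nearly the same level in both groups. FOSL1, by far the most abundant of the 10 per kb of transcript, did not pass the test.

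AP-1 is a dimer of basic leucine zipper proteins. Proteins of the JUN family can pair with each other or with a FOS-family protein, whereas FOS-family proteins need a partner such as JUN. Immediate-early genes are transcribed within minutes of a growth factor or stress signal without new protein synthesis, largely through MAP kinases acting on factors bound to their promoters, and several of their transcripts are short-lived.

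The series asked how the transcriptome of triple-negative breast cancer cells depends on SAM68, an RNA-binding protein encoded by KHDRBS1. MDA-MB-231, a human breast cancer line of mesenchymal-like character, received 2 rounds of transfection, either with an siRNA that has no target (si-CTRL) or with siRNAs pooled to silence SAM68 (si-SAM68), and each group has 3 libraries. By the sample labels, cells were grown in high-glucose DMEM with serum and collected 24 h after the later round, and the labels name no growth factor or stress applied to them. Sequencing depth, as reads on all loci, was 52625492, 67124351 and 69355385 for the si-CTRL libraries. For the si-SAM68 libraries it was 65473122, 82568487 and 59488569. Values are normalized read counts, the reads on a locus divided by the size factor of the library, and follow the order of replicates 1, 2 and 3. Nothing states that the replicates came from separate cultures, so p-values measure the spread between these samples, which may be technical.

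KHDRBS1 was at 15660, 14483 and 14737 in si-CTRL and at 583.3, 601.6 and 670.2 in si-SAM68. Every library was on the side its label gives, with 4.134% of the control mean left (log2 fold change −4.60, SE 0.0829, adjusted p 2.13e-09). Of the markers of the line, VIM was between 138300 and 173162, CD44 between 43246 and 68397 and EGFR between 3138 and 4104. The other marker of the line, KRT18, separated the groups, at 23834 to 25456 in si-CTRL and 30610 to 32569 in si-SAM68 (log2 fold change 0.35, adjusted p 0.0144), and its part in the results was not tested. ESR1 was at most at 15.2, CDH1 at most at 4.6, EPCAM at most at 9.2 and PGR at 0, but ERBB2, chosen as a marker at low level, was between 2413 and 3447. The 4 leukocyte markers summed to 5.0, 13.6 and 10.5 in si-CTRL and to 8.0, 13.7 and 13.4 in si-SAM68. The 3 endothelial markers summed to 76.2, 52.3 and 49.4 in si-CTRL and to 32.2, 31.3 and 35.7 in si-SAM68, with CDH5 the most abundant in 5 of the 6 libraries and none at 0. Of the 4 fibroblast markers, COL1A1 was the most abundant, between 138281 and 181387. PDGFRB was between 592.0 and 775.8, COL3A1 between 24.2 and 48.4 and DCN between 0 and 3.7. The part of the endothelial markers, which were lower in si-SAM68 as FOS and EGR1 were, was not tested. In these bulk libraries fewer expressing cells and less RNA per cell cannot be told apart.

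A locus of ribosomal RNA took 15.12% of the reads of si-SAM68 replicate 2, against 1.835% to 3.171% in the other 5 libraries. The results for each member that passed the test are therefore also given without that library. Without it, EGR1 and FOS kept an adjusted p under 0.05 and no other member reached it.

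A locus was called as regulated at the thresholds of the study, an unadjusted p of at most 0.05 in limma and a fold change of at least 1.5. This held for 3 of the 10 members, EGR1, FOS and EGR2, beside 7.67% of all loci tested. All 3 were lower in si-SAM68, where 4.83% of all loci were called lower. These shares belong to the fit made here. The paper reports, from its own analysis, fewer regulated genes than the loci called here. After Benjamini-Hochberg adjustment over all loci 2 members, EGR1 and FOS, passed at 0.05, beside 10.7% of all loci, of which 6.23% were lower and 4.47% higher. Where a gene is said below to keep or lose its call, the adjusted p is meant, unless the thresholds of the study are named. The values of 7 members did not overlap between the groups, beside 33.9% of all loci. For 6 of the 7 the si-SAM68 values were the lower ones, beside 17.3% of all loci, and for FOSL2 the higher ones. The median log2 fold change was −0.22 over the 10 members and 0.01 over all loci. The members were chosen with earlier results of these data known, so these counts and shares are descriptions. A permutation test of 3 against 3 libraries cannot give a two-sided p under 0.1, and each of these 7 members had an exact permutation p of 0.1.

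**Figure D1:**
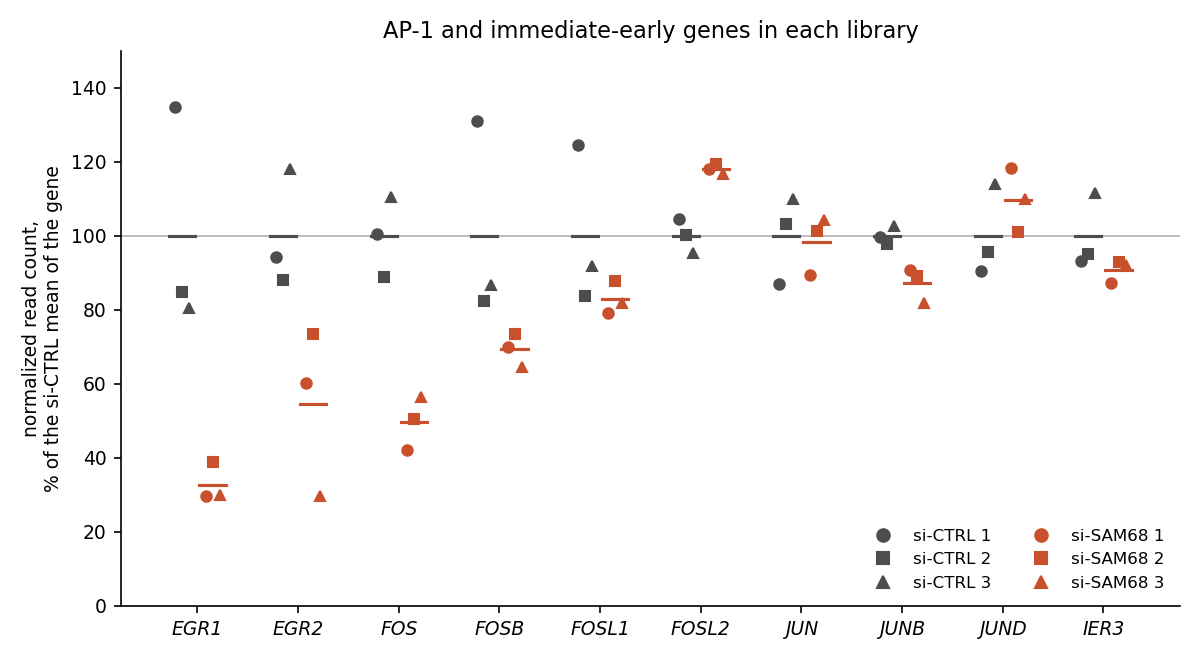
Normalized read counts of the 10 members in the 3 si-CTRL and 3 si-SAM68 libraries, as a percentage of the si-CTRL mean of each gene on the vertical axis, with 1 point per library and a short line at each group mean. The si-SAM68 mean lies at 32.69% for EGR1 and at 49.7% for FOS, whereas the points of JUN overlap.

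The 250 bases before the annotated starts are shown for EGR1, EGR2, FOS and FOSB, the 4 members with the most negative log2 fold changes, and for JUND because of its match to a cyclic AMP response element. Promoters of 8 of the 10 members were matched in the RefSeq table (GRCh38.p14), 10 promoters in all because EGR2 has 3 starts. FOSL1 and IER3 are named only. The motifs searched on both strands were the cyclic AMP response element or CRE (TGACGTCA, in 1.65% of 35116 promoters of 27305 genes), the AP-1 site (TGANTCA, 6.57%), the EGR site (GCGNGGGCG, 8.41%), the TATA box (TATAAA, 10.7%) and the CArG box to which serum response factor binds (1.16%). The CRE core (TGACGT, 7.1%), which the CRE contains on both strands, was chosen after the sequences of the members had been read. At least 1 CRE core stood in promoters of 6 members (FOS, FOSB, FOSL2, JUND, EGR1 and EGR2), a TATA box in 3 (FOS, FOSB and JUNB), a CArG box in 2 (EGR1 and EGR2), a CRE in 1 (JUND), an EGR site in 1 (EGR1) and an AP-1 site in 0. These are matches of letters, and no match says only that the letters are not in this window. Capitals mark the motif matches in all sequences below, and a CRE core on the other strand reads as ACGTCA.

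**Figure D2:**
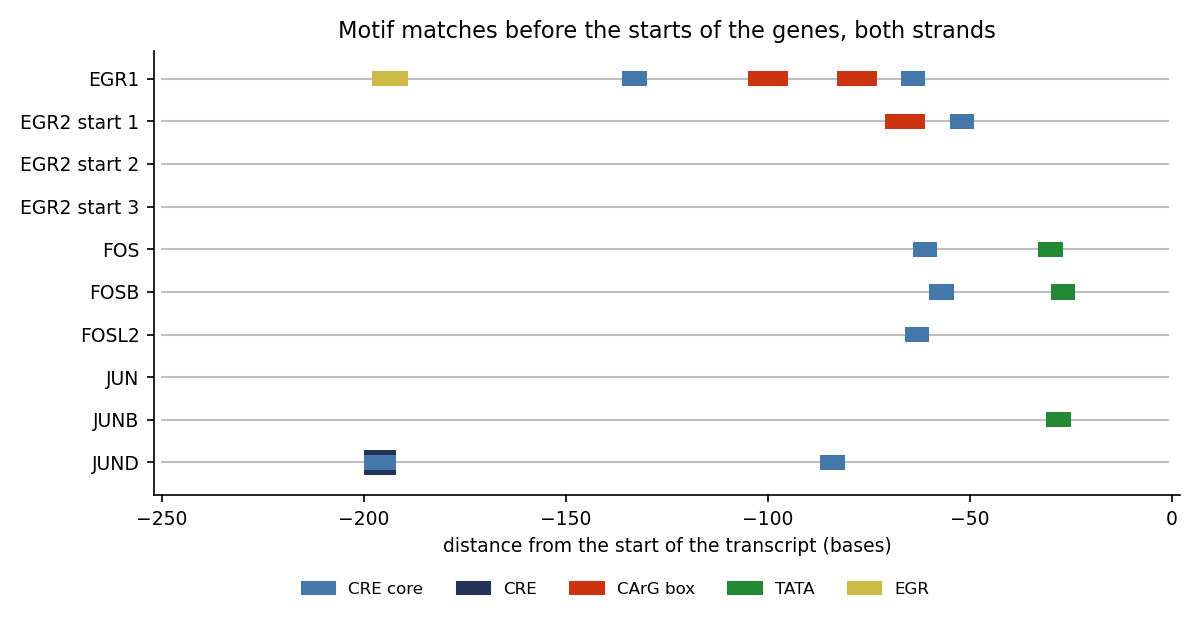
Motif matches in the 250 bases before each start, with the distance from the start in bases on the horizontal axis, 1 line per promoter and 1 colour per motif. The CArG boxes of EGR1 lie 105 to 96 and 83 to 74 bases before the start, and JUN has no match.

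EGR1, a factor that binds GC-rich promoter sites, was at 1767, 1110 and 1055 in si-CTRL and at 386.8, 507.8 and 391.0 in si-SAM68. The lowest control library was above the highest SAM68-depleted one, and si-CTRL replicate 1 was the highest of all. The mean fell from 1311 ± 396.2 to 428.5 ± 68.66 (SD, n = 3), a log2 fold change of −1.58 with an SE of 0.191, at a limma adjusted p of 0.00132. Without si-SAM68 replicate 2 the log2 fold change was −1.71 (adjusted p 0.00261), and without si-CTRL replicate 1 it was −1.35 (adjusted p 0.000108). No library decided the call, since adjusted p was at most 0.0171 with each of the 6 left out. No other locus overlaps EGR1, which lies on chromosome 5 from 137801169 to 137805189 in the files (hg19), and 350 to 1414 reads per library stood behind its values. Its promoter (chr5:138465229-138465478, plus strand, GRCh38.p14) held 2 CArG boxes, 1 EGR site 198 to 190 bases before the start and 2 CRE cores.
EGR1: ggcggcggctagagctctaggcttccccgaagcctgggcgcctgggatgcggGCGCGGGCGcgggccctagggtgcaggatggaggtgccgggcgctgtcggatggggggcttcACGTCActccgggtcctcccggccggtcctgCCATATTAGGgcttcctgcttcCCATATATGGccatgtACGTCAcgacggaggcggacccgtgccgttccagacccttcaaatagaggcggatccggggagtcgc

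EGR2, a relative of EGR1 known for its part in myelination and hindbrain patterning, was at 42.49, 39.71 and 53.24 in si-CTRL and at 27.2, 33.12 and 13.4 in si-SAM68. The groups did not overlap, but si-SAM68 replicate 3 was far below the rest of its group, at a log2 deviation of −0.74 from the group mean. The mean was 45.15 ± 7.143 in si-CTRL and 24.57 ± 10.11 in si-SAM68 (SD, n = 3). The log2 fold change was −0.93 (SE 0.341) with a limma adjusted p of 0.113, so that EGR2 passed the thresholds of the study and not the adjusted test. With only 12 to 56 reads per library, EGR2 is the least deeply measured of the 10. The call by the thresholds of the study depended on 2 libraries: with si-SAM68 replicate 3 left out the log2 fold change was −0.56 (adjusted p 0.304) and the call was lost, as it was with si-CTRL replicate 3 left out (adjusted p 0.249). The first EGR2 start by genomic coordinate (chr10:62816367-62816616, minus strand, GRCh38.p14) is shown because it has a CArG box 71 to 62 bases and a CRE core 55 to 50 bases before the start, an order also seen in EGR1. The 2 other starts held none of the motifs.
EGR2 start 1: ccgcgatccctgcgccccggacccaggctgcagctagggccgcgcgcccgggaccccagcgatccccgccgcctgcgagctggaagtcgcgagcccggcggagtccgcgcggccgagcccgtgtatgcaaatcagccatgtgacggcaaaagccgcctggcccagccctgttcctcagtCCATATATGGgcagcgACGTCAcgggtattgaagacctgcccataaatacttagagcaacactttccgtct

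FOS, the founding FOS-family subunit, was at 185.0, 163.7 and 203.4 in si-CTRL and at 77.57, 92.91 and 103.9 in si-SAM68. All 3 control values were above all 3 values after depletion. The mean fell from 184.0 ± 19.9 to 91.46 ± 13.22 (SD, n = 3), a log2 fold change of −1.01 with an SE of 0.166, at a limma adjusted p of 0.00627. Without si-SAM68 replicate 2 it was −1.02 (adjusted p 0.0235), and with any single library left out adjusted p was at most 0.0285. An unnamed locus on chromosome 14 from 75747486 to 76176131 overlaps FOS (75745481 to 75748937, hg19) and was at 32.5, 13.56 and 19.96 in si-CTRL and at 6.045, 8.279 and 6.702 in si-SAM68. The 2 loci can share reads, since strand use in counting is not stated, and the overlapping locus had a log2 fold change of −1.45 with an adjusted p of 0.0545.

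FOSB, which encodes a subunit close to FOS, was at 373.7, 235.4 and 247.2 in si-CTRL and at 199.5, 209.7 and 184.3 in si-SAM68. The groups did not overlap, and si-CTRL replicate 1 stood well above the other 2 control libraries. The mean was 285.4 ± 76.69 in si-CTRL and 197.8 ± 12.79 in si-SAM68 (SD, n = 3), a log2 fold change of −0.50 (SE 0.179) with an adjusted p of 0.107 in limma. Without si-CTRL replicate 1 the log2 fold change was −0.29 (adjusted p 0.18), and without si-CTRL replicate 2 it was −0.62, which passed the thresholds of the study (adjusted p 0.0702). FOSB lies within ERCC1, a DNA repair gene annotated from 45910591 to 45982086 on chromosome 19, with which it can share reads. ERCC1 itself fell, with a log2 fold change of −0.37 and an adjusted p of 0.0249, a call lost with si-SAM68 replicates 1, 2 or 3 left out (0.0585, 0.0995 or 0.111).

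The promoters of FOS (chr14:75278578-75278827, plus strand) and FOSB (chr19:45467746-45467995, plus strand, both GRCh38.p14) are shown side by side because both hold a CRE core followed by a TATA box. In FOS the core lies 64 to 59 and the TATA box 33 to 28 bases before the start, and in FOSB 60 to 55 and 30 to 25.
FOS: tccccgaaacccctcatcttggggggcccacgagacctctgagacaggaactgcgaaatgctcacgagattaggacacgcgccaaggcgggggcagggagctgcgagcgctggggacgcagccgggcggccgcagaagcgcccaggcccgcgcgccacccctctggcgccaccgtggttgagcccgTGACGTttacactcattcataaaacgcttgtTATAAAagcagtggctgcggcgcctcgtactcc
FOSB: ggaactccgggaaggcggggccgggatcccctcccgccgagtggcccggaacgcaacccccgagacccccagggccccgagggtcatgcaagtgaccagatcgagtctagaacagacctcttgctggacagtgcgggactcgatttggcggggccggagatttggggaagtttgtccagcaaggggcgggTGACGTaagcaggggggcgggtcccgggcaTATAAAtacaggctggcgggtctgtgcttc

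FOSL1, the gene of FRA-1, a subunit known for its high level in mesenchymal-like breast cancer cells, was at 59386, 39866 and 43691 in si-CTRL and at 37658, 41867 and 39003 in si-SAM68. The groups overlapped, and si-CTRL replicate 1 was far above the other 5 libraries. The mean was 47650 ± 10340 in si-CTRL and 39510 ± 2149 in si-SAM68 (SD, n = 3), a log2 fold change of −0.25 (SE 0.132) with a limma adjusted p of 0.256. Without si-CTRL replicate 1 the log2 fold change was −0.08 (adjusted p 0.484). FOSL1 overlaps a long locus that the annotation names after NEAT1 and MIR612, whose log2 fold change was −0.07.

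FOSL2, the gene of FRA-2, was at 11908, 11407 and 10852 in si-CTRL and at 13432, 13600 and 13300 in si-SAM68. It was the only member with every SAM68-depleted library above every control library. The mean was 11390 ± 528.5 in si-CTRL and 13440 ± 150.3 in si-SAM68 (SD, n = 3). The log2 fold change of 0.24 (SE 0.0699) had an adjusted p of 0.0562 in limma, just above the threshold. With si-CTRL replicate 1 left out the adjusted p was 0.0102, and with si-SAM68 replicate 2 left out it was 0.202. A small unnamed locus that overlaps its start had a log2 fold change of 0.09. Its promoter held a CRE core 66 to 61 bases before the start.

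JUN, the most abundant of the JUN family per kb, was at 7884, 9350 and 9955 in si-CTRL and at 8100, 9184 and 9459 in si-SAM68. The groups overlapped almost entirely, and in both groups replicate 1 was the lowest. The mean was 9063 ± 1065 in si-CTRL and 8914 ± 718.9 in si-SAM68 (SD, n = 3), with a log2 fold change of −0.02 (SE 0.102, exact permutation p 0.9). The sign of so small a value turned with the library left out, from −0.12 to 0.05.

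JUNB, a subunit often opposed to JUN in growth control, was at 1389, 1364 and 1429 in si-CTRL and at 1263, 1244 and 1141 in si-SAM68. The groups did not overlap, and the difference was small. The log2 fold change of −0.20 (SE 0.084) had an adjusted p of 0.164 in limma. An unnamed locus that contains JUNB had a log2 fold change of the other sign, 0.33 (adjusted p 0.0788). JUND, a more steadily expressed JUN-family subunit, was at 2165, 2283 and 2722 in si-CTRL and at 2827, 2414 and 2626 in si-SAM68. Its groups overlapped, with a log2 fold change of 0.14 (SE 0.104) and an exact permutation p of 0.3. With a library left out this log2 fold change ranged from 0.07 (si-CTRL replicate 1 left out) to 0.24 (si-CTRL replicate 3 left out). The JUND promoter (chr19:18281623-18281872, minus strand, GRCh38.p14) is shown because it alone among the 10 member promoters held the whole CRE, 200 to 193 bases before the start, besides a further CRE core 87 to 82 bases before it.
JUND: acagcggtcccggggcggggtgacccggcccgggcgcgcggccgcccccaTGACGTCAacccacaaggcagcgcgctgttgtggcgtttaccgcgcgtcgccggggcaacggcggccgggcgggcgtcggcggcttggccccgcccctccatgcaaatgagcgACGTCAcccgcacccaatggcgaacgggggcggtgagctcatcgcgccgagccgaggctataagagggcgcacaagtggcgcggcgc

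IER3, which lies on chromosome 6, was at 10499, 10713 and 12575 in si-CTRL and at 9819, 10465 and 10384 in si-SAM68. The highest SAM68-depleted library was just below the lowest control library. The log2 fold change was −0.14 (SE 0.0857) with an adjusted p of 0.341 in limma. Without si-CTRL replicate 3 it was −0.05 (adjusted p 0.745). IER3 lies within a locus named after TUBB, a far more abundant locus with a mean of 109500 in si-CTRL and a log2 fold change of −0.04.

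**Figure D3:**
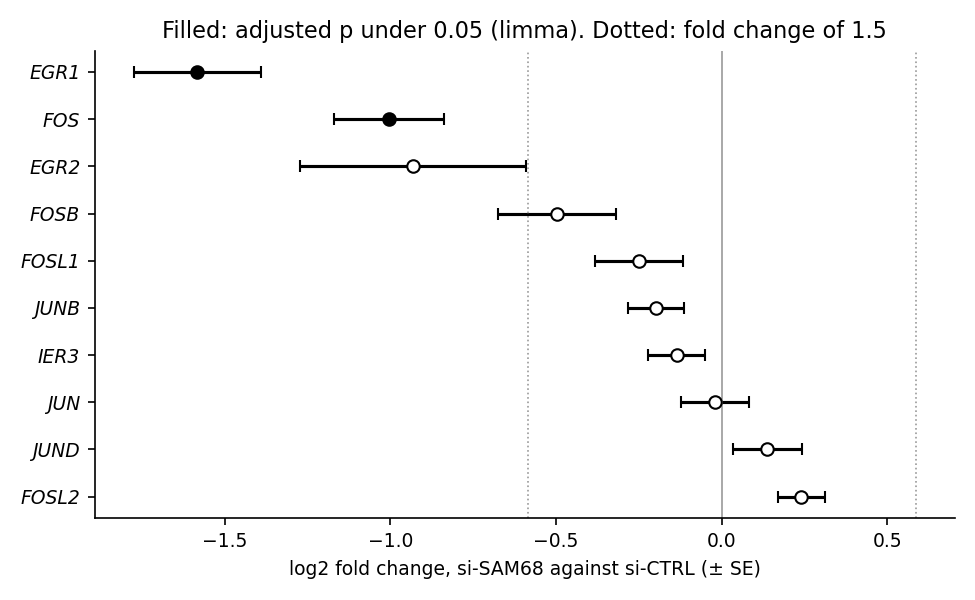
Log2 fold change of si-SAM68 against si-CTRL for the 10 members, with points at the limma estimate, bars of 1 SE, filled points for an adjusted p under 0.05 and dotted lines at a fold change of 1.5. EGR1 (−1.58) and FOS (−1.01) are filled, and FOSL2 (0.24) and JUND (0.14) are the 2 on the positive side.

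Levels were compared between genes as normalized read counts per kb of the longest transcript. In si-CTRL the order was FOSL1 (28550 ± 6198, SD, n = 3), IER3 (8342 ± 846), JUN (2560 ± 300.9), FOSL2 (1698 ± 78.79), JUND (1283 ± 157.5), JUNB (765.8 ± 18.06), EGR1 (417.7 ± 126.3), FOS (85.28 ± 9.219), FOSB (75.61 ± 20.32) and EGR2 (15.21 ± 2.407). Over all 6 libraries the only neighbours in this order whose levels per kb overlapped were FOS and FOSB. FOSB was already above FOS in si-CTRL replicate 1 (98.99 against 85.72 per kb). In si-SAM68 the means per kb were 42.38 ± 6.125 for FOS and 52.41 ± 3.387 for FOSB. EGR1 was at 136.6 ± 21.88 per kb in si-SAM68, still above both.

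FOSL1 thus made up 94.8%, 92.9% and 93.6% of the summed FOS-family level per kb in si-CTRL, and 91.5%, 92.2% and 91.8% in si-SAM68. Its share was lower in every SAM68-depleted library. The share of FOSL2 was 4.73%, 6.61% and 5.79% in si-CTRL and 8.12%, 7.45% and 7.79% in si-SAM68. FOS took 0.287% ± 0.0549 in si-CTRL and 0.164% ± 0.0223 in si-SAM68 (SD, n = 3). FOS, the member of the family that passed the adjusted test, is thus a small part of the family RNA. The FOS-family sum per kb was 30407 ± 6278 in si-CTRL and 25771 ± 1308 in si-SAM68, with si-CTRL replicate 1 at 37542. Within the JUN family JUN had 55.5% ± 1.79 in si-CTRL and 54.8% ± 3.4 in si-SAM68, JUND 27.8% ± 1.18 and 30.7% ± 2.77, and JUNB 16.7% ± 1.49 and 14.6% ± 1.11. The JUN-family sum per kb was 4609 ± 453 in si-CTRL and 4594 ± 106 in si-SAM68. Shares and sums are described without a test.

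**Figure D4:**
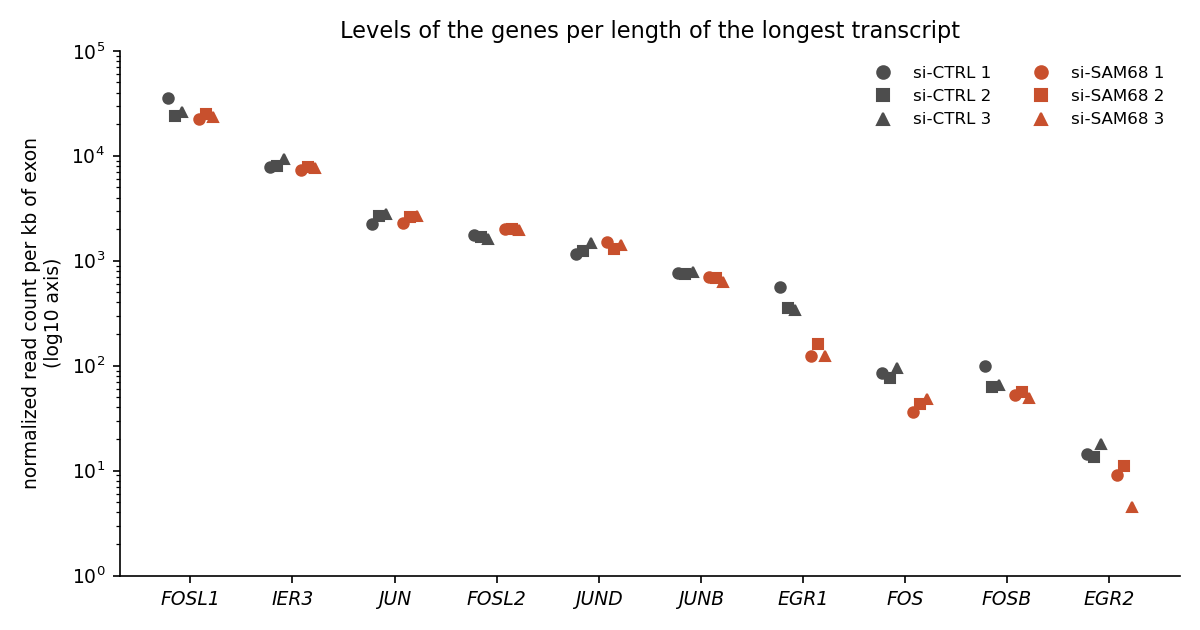
Normalized read counts per kb of the longest transcript for the 10 members on a log axis, with 1 point per library and the 2 groups in different colours. FOSL1 is the highest at 22560 to 35580 per kb and EGR2 the lowest at 4.516 to 17.94.

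The profiles most alike were taken among 12927 loci with a symbol and a mean of at least 50, by the root mean square difference of centred log2 values over the 6 libraries. For FOS these were SNRK-AS1 (0.0583), FAM83A (0.0746), TERT (0.0808), TM4SF1 (0.0819) and MMD (0.0951). For EGR1 they were RELN (0.149), CDH11 (0.167), KCNG1 (0.169), CCDC184 (0.178) and ZNF185 (0.185). For FOSL1 they were TRMT6 (0.0376), PRKAR1A (0.0391), KLF6 (0.0416), HERPUD1 (0.0418) and BRD2 (0.0434). EGR2, with a mean under 50, was not compared. Of the other members compared, none was among the 5 nearest: the member nearest to FOS was FOSB at rank 1138, the nearest to EGR1 was FOS at rank 143, and the nearest to FOSL1 was FOSB at rank 1257.

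Of 18 other leucine zipper partners of AP-1 proteins, 16 were tested, and 3 fell and 0 rose at an adjusted p under 0.05 (18.8%, beside 10.7% of all loci). Their median log2 fold change was 0.01, and it was −0.03, −0.04 and −0.03 with si-CTRL replicates 1, 2 and 3 left out in turn. This list and those below were chosen with earlier results of these data known, so their shares are described and not tested. BATF3, a partner of JUN proteins in lymphoid cells, fell from 344.8 ± 68.37 to 199.1 ± 23.64 (SD, n = 3; log2 fold change −0.78, adjusted p 0.019). MAFF, a small MAF protein without an activation domain, fell from 3526 ± 354.1 to 2349 ± 322.3 (log2 fold change −0.59, adjusted p 0.0133). JDP2, a repressor that pairs with JUN, fell from 474.7 ± 65.5 to 322.5 ± 13.17 (log2 fold change −0.55, adjusted p 0.0236). All 3 calls were lost without si-SAM68 replicate 3 (adjusted p 0.0596 to 0.0995). BATF3 also lost it without si-CTRL replicate 3 (0.062) and si-SAM68 replicate 1 (0.0519), and JDP2 without si-CTRL replicate 2 (0.0566), si-SAM68 replicate 1 (0.0616) and si-SAM68 replicate 2 (0.0892). The count of the list was 5 with si-CTRL replicate 1 left out and 1 with si-SAM68 replicate 1 left out. It was 0 with si-SAM68 replicate 3 left out. In limma without a trend it was also 0, where 3 still met the thresholds of the study. The 3 most abundant partners did not pass, with log2 fold changes of 0.02 for ATF2, 0.03 for MAFG and 0.31 for CREBL2. That of CREBL2 was 0.18 without si-CTRL replicate 1.

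Of 29 kinases and factors upstream of the immediate-early genes, 28 were tested, with 3 lower and 0 higher at an adjusted p under 0.05, a share of 10.7% that equals that of all loci. The median log2 fold change was −0.07, or −0.02 with si-CTRL replicate 1 and −0.11 with si-CTRL replicate 3 left out. MAP2K1, the kinase that phosphorylates ERK proteins, fell from 3759 ± 206.2 to 2743 ± 6.585 (SD, n = 3; log2 fold change −0.45, adjusted p 0.00655). It kept its call with each library left out. ELK4, a partner of serum response factor on a locus shared with another symbol, fell from 2831 ± 359.8 to 1956 ± 143.8 (log2 fold change −0.53, adjusted p 0.0136). Its call was lost without si-SAM68 replicate 1 (0.0617) or si-SAM68 replicate 3 (0.0712). MAPK9, a JUN kinase, fell from 3494 ± 378.7 to 2647 ± 169.6 (log2 fold change −0.40, adjusted p 0.029). With the replicate number as a block its adjusted p was 0.0517, and without si-SAM68 replicates 1, 2 or 3 it was 0.0999, 0.112 or 0.0691. The count of the list was 1 with either si-SAM68 replicate 1 or si-SAM68 replicate 3 left out, and 1 in limma without a trend. NRAS, the most abundant gene of the list, did not pass (log2 fold change 0.05, adjusted p 0.740).

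Of 47 other immediate-early genes, 45 were tested, with 9 lower and 4 higher at an adjusted p under 0.05 (28.9%, beside 10.7% of all loci) and a median log2 fold change of −0.08. EGR3, of the same family as EGR1, fell from 93.35 ± 19.26 to 45.82 ± 9.074 (SD, n = 3; log2 fold change −1.01, adjusted p 0.0247). PTGS2, the inducible cyclooxygenase, fell from 500.9 ± 97.63 to 267.3 ± 63.37 (log2 fold change −0.91, adjusted p 0.0178). NFKBIZ, a nuclear regulator of NF-kB, fell from 1085 ± 144.1 to 590.4 ± 109.1 (log2 fold change −0.89, adjusted p 0.00713). These values stood in the same direction as those of EGR1 and FOS. HBEGF, a ligand of EGFR, fell from 1658 ± 375.6 to 974 ± 79.87 (log2 fold change −0.75, adjusted p 0.0147). The nuclear receptor gene NR4A1 fell from 172.3 ± 13.63 to 112.6 ± 5.385 (log2 fold change −0.61), with an adjusted p of 0.0249 and of 0.0504 with the replicate block. KLF4, a zinc finger factor, fell from 1326 ± 248.8 to 887.4 ± 41.43 (log2 fold change −0.56, adjusted p 0.0259). Not every gene of the list went down. RHOB, a small GTPase, rose from 8583 ± 1042 to 13320 ± 397.3 (log2 fold change 0.64, adjusted p 0.00356), and PLK2, a polo-like kinase, rose from 36920 ± 2410 to 53080 ± 1361 (log2 fold change 0.53, adjusted p 0.00332).

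NFKBIZ, RHOB and PLK2 kept their calls with each library left out. EGR3, PTGS2, HBEGF, NR4A1 and KLF4 lost theirs with si-SAM68 replicate 1 left out (adjusted p 0.0647 to 0.0952) and with si-SAM68 replicate 3 left out (0.0776 to 0.105). EGR3 also lost it without si-CTRL replicate 2 (0.0587), NR4A1 without si-CTRL replicate 3 (0.0743) and si-SAM68 replicate 2 (0.0689), and KLF4 without these same 2 libraries (0.0705 and 0.0669). MAFF, described among the AP-1 partners, is also counted among the 9 lower genes of this list. The other genes of the list past the adjusted test were named after their values were seen. DUSP1, a phosphatase that inactivates MAP kinases, fell by 0.56 on the log2 scale (adjusted p 0.00356) and kept its call with each library left out. PPP1R15A, a regulator of the stress response, fell by 0.53 on the log2 scale (adjusted p 0.0444, or 0.0724 with the replicate block), and passed in 2 of the 6 fits, those with si-CTRL replicate 1 or 2 left out. The 2 that rose were BTG2, an antiproliferative gene (log2 fold change 0.55, adjusted p 0.0115), and TRIB1, a pseudokinase gene (0.51, adjusted p 0.0397). BTG2 had adjusted p of 0.0512 and 0.0508 without si-SAM68 replicates 1 and 3. TRIB1 passed in only 1 of the 6 fits with a library left out, that without si-CTRL replicate 1, and had an adjusted p of 0.064 with the replicate block. With si-SAM68 replicate 1 left out 6 genes of the list passed the adjusted test (4 lower, 2 higher), and with si-SAM68 replicate 3 left out 4 did (2 lower, 2 higher). With si-CTRL replicate 1 left out 10 were lower and 8 higher, and with si-CTRL replicate 2 left out the median was −0.14. In limma without a trend 3 were lower and 2 higher. MCL1 and CYR61, with PLK2 the most abundant of the list, had log2 fold changes of −0.08 and 0.21, and CYR61 had an adjusted p of 0.201, or 0.00608 without si-CTRL replicate 1.

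NAB1 and NAB2 encode corepressors that bind EGR proteins. NAB2 fell from 1046 ± 40.34 to 832.4 ± 51.76 (SD, n = 3; log2 fold change −0.33, adjusted p 0.0456), but its adjusted p was 0.0758 with the replicate block and passed in only 1 of the 6 fits with a library left out, that without si-CTRL replicate 1. NAB1 had a log2 fold change of 0.05.

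Of 45 genes listed as targets of AP-1, 43 were tested, with 16 lower and 4 higher at an adjusted p under 0.05 (46.5%, beside 10.7% of all loci) and a median log2 fold change of −0.14. The list was chosen with earlier results of these data known, so this share is no test of AP-1 targets. At a minimum mean of 50, 19 targets passed, beside 2165 of 15034 loci. PTGS2 and HBEGF stand on this list as well as on that of immediate-early genes. The secreted factors CSF2, IL11 and CXCL8 had lower values in every SAM68-depleted library than in any control library. CSF2 fell from 196.1 ± 34.57 to 57.38 ± 15.92 (SD, n = 3; log2 fold change −1.77, adjusted p 0.00152). IL11 fell from 1308 ± 269 to 456.8 ± 50.33 (log2 fold change −1.50, adjusted p 0.000652). CXCL8, a neutrophil chemokine, fell from 16650 ± 2131 to 6174 ± 1532 (log2 fold change −1.46, adjusted p 0.00118). These 3 kept their calls with each library left out. MMP1, an interstitial collagenase, fell from 572.7 ± 187.3 to 244.2 ± 47.11 (log2 fold change −1.18, adjusted p 0.0163), and IL6 fell from 721.2 ± 188.6 to 396.2 ± 61.7 (log2 fold change −0.84, adjusted p 0.0203). Both calls were lost without si-SAM68 replicate 1 (0.0739 and 0.0836) and si-SAM68 replicate 3 (0.0594 and 0.079), and that of MMP1 without si-CTRL replicate 3 (0.0502).

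IVL, a protein of the cornified envelope, fell from 63.45 ± 14.36 to 28.28 ± 12.05 (SD, n = 3; log2 fold change −1.21, adjusted p 0.0465), but its adjusted p was 0.0782 with the replicate block and 0.0552 to 0.118 with each library left out. MT2A, a metallothionein, fell from 83290 ± 4407 to 68330 ± 2250 (log2 fold change −0.28, adjusted p 0.0422), with an adjusted p of 0.0676 with the replicate block and a call that held only without si-CTRL replicate 1 among the 6 fits. ITGB4, a laminin-binding integrin subunit, rose from 384.4 ± 49 to 789.3 ± 114.3 (log2 fold change 1.03, adjusted p 0.00242). CAV1, the coat protein of caveolae, rose from 60580 ± 1374 to 93100 ± 2180 (log2 fold change 0.62, adjusted p 0.00101). Both kept their calls with each library left out. The remaining targets past the test were named after their values were seen. HMGA2, an architectural chromatin protein, fell by 0.80 on the log2 scale (adjusted p 0.0107) and kept its call with each library left out, but not in limma without a trend (0.0672). VEGFA, HMOX1, VEGFC, LIF, SPHK1 and PLAUR had log2 fold changes of −0.57 to −0.44 and lost their calls with si-SAM68 replicate 3 left out (adjusted p 0.0596 to 0.169). All of these except SPHK1 also lost them with si-SAM68 replicate 1 left out (0.0595 to 0.124). The call held in 1 of the 6 fits for HMOX1, that without si-CTRL replicate 2, and in 2 for VEGFC and PLAUR, those without si-CTRL replicate 1 or 2. With the replicate block VEGFC was at 0.0591 and HMOX1 at 0.0506. The 2 targets that rose besides ITGB4 and CAV1 were TXNRD1 (log2 fold change 0.32, adjusted p 0.0304) and the keratin gene KRT18 (0.35, adjusted p 0.0144). KRT18 lost its call without si-SAM68 replicates 1, 2 or 3 (0.0583, 0.0535 or 0.0671). TXNRD1 lost it without the control libraries 2 and 3 (0.09 and 0.059) and the si-SAM68 libraries 2 and 3 (0.126 and 0.128). ITGA6, among the most abundant of the list, had a log2 fold change of 0.01. Of the targets 23, 17 and 13 passed the adjusted test with si-CTRL replicates 1, 2 and 3 left out in turn, and 8, 13 and 6 with si-SAM68 replicates 1, 2 and 3 left out. With si-CTRL replicate 1 left out 14 were lower and 9 higher and the median was −0.01, whereas with si-CTRL replicate 2 left out the median was −0.26. In limma without a trend 5 of the 43 passed, 3 lower and 2 higher, and over all loci that fit gave 899 in place of 2017.

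**Figure D5:**
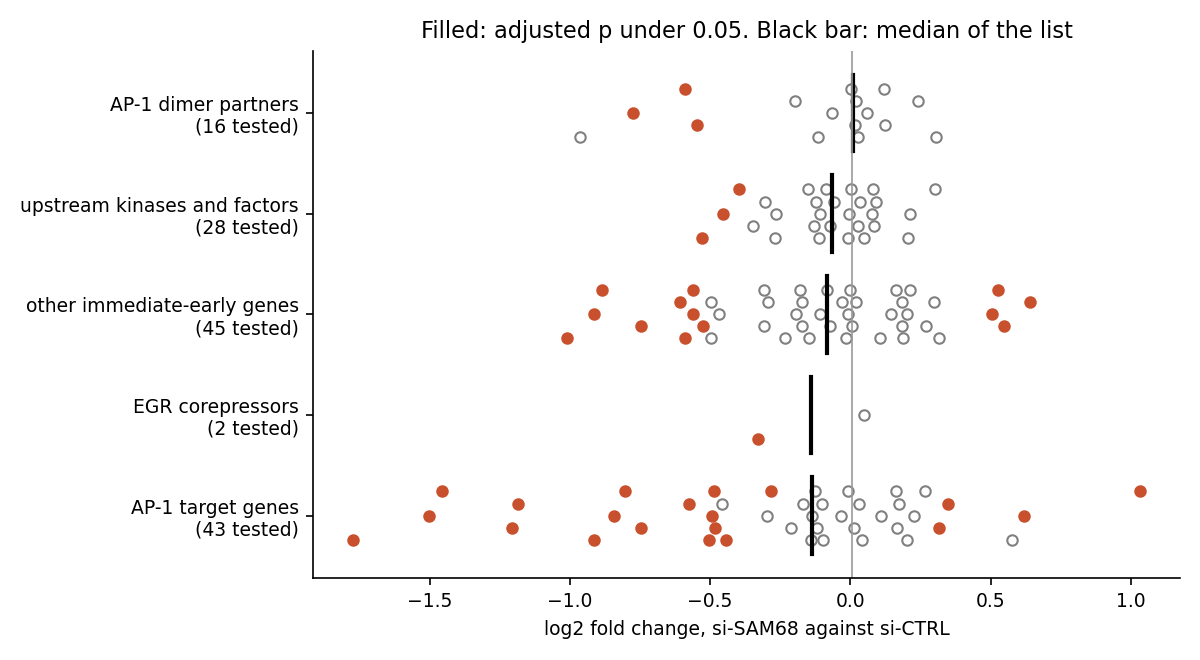
Log2 fold change of each tested gene of the 5 lists, with 1 point per gene, a black bar at the median of the list, a grey line at the median of all loci and filled points for an adjusted p under 0.05. The AP-1 targets have 20 such genes of 43 and the upstream kinases and factors 3 of 28.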

How the data were processed

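RNA of 3 si-CTRL and 3 si-SAM68 libraries had been sequenced. The table deposited by the authors holds a signal, namely reads per FAST DB locus (hg19) divided by the DESeq2 size factor of the library. The submitters' processing notes name FastQC, Picard, SAMtools, STAR 2.4.0 and DESeq2. Strand use in counting is not given in the sources used here. The labels give DMEM, a miRNeasy kit, a stranded library kit and collection 24 h after the later transfection, whereas the methods of the paper give RPMI, another extraction kit and another time. Of 74852 loci, 41493 were at 0 in every library.

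limma 3.58.1 in R 4.3.3 (lmFit, eBayes with a trend) was run on 18849 loci whose mean reached 10, after a pseudocount of 1 and log2 transformation of the normalized read counts, so that fold changes on this scale understate those of low loci. Benjamini-Hochberg adjustment covered these loci. Dividing by the step of each library gave whole reads for 100% of values within 0.05 reads, on which edgeR 4.0.16 called 1498 loci by the thresholds of the study and DESeq2 1.42.0 called 1334. For si-SAM68 replicate 1 this step, 1.007, is so near 1 that the division shows less. The fit was tested on simulated data for this comparison over 18849 loci, where limma recovered 179 of 200 changed ones and called 13 unchanged ones. Tables, exact permutation tests and figures were made in Python 3.11.15 with NumPy 2.4.6, pandas 2.3.3, SciPy 1.17.1 and matplotlib 3.10.9. Levels per kb used the longest GENCODE transcript (GRCh38), for length only. Likeness, motifs and shares are descriptions.

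The replicate numbers come from the sample titles. Deviations from the group means correlated across loci at 0.105, 0.231 and 0.125 for libraries of the same number and at −0.125 to 0.00687 otherwise. Deviations within a group offset each other, so these low correlations are not independent and cannot establish that the numbers pair the libraries. The main fit ignored the replicate number, and a block for it was one of the alternatives. Genes named are KHDRBS1, the members, of each list up to 8 with an adjusted p under 0.05 by size of the log2 fold change and the 3 most abundant, and the 5 profiles most like FOS, FOSL1 and EGR1. Some genes that this rule takes are not reported here. Other settings were a pseudocount of 0.1 or 5, a minimum mean of 50 or none, TMM or quantile scaling, a robust trend or none in eBayes, the block, edgeR with and without it, DESeq2, a fold change of at least 2, and each library left out. Members and lists were chosen with earlier results of these data known. Protein sequences were not used here. With 3 libraries per group, small differences cannot be told from replicate spread, and loci that overlap can share reads.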

Additional observations from a re-analysis of the deposited data

How the results depend on the processing

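The 10 members gave 179 values over the alternatives, of which 173 kept their direction and their side of the adjusted threshold; EGR2 has no value at a minimum mean of 50. EGR1 and FOS stayed under it in every alternative, at adjusted p of at most 0.0285. FOSL2 passed it without si-CTRL replicate 1 (0.0102), at a minimum mean of 50 (0.0482) and with DESeq2 (0.0252), and the cause was not tested. Members called numbered 2 to 4 and members past the adjusted test 2 to 3 with each library left out. The sign of JUN turned, at 0.01, 0.05 and 0.05 when si-CTRL replicate 2, si-CTRL replicate 3 or si-SAM68 replicate 1 was left out (range −0.12 to 0.05). Small values of other genes also turned with a library left out: ATF2 (−0.03 to 0.1), MAFG (−0.04 to 0.09), NRAS (−0.0018 to 0.09), MCL1 (−0.15 to 0.01), NAB1 (−0.0038 to 0.11) and ITGA6 (−0.09 to 0.12). With quantile normalization NRAS was at −0.0038 and ITGA6 at −0.02. The cause was not tested. Of 881 values of the 49 other genes that the naming rule takes, 783 held, 86 lost the adjusted call, 1 gained it and 11 changed sign. The 1445 loci called as regulated became 2240 with no filter, where more loci were tested, and 428 at a fold change of at least 2, a stricter threshold, and were 1297 to 1825 with each library left out. The 37 genes of the 5 lists past the adjusted test became 11 without a trend (899 over all loci), the cause not being tested, and 11 to 47 with each library left out, highest without si-CTRL replicate 1, and the cause was not tested. Over all loci those fits gave 627 to 2834 with an adjusted p under 0.05, against 2017. With the replicate block 1514 loci were called and 28 list genes passed. Among the genes named the block ended the calls of MAPK9, NR4A1, PPP1R15A, TRIB1, NAB2, VEGFC, HMOX1, MT2A and IVL, and it changed no other call. With transcript length taken as the union of all exons, the FOSL1 share in si-SAM68 was 91.5%. Depth limits EGR2 most, with 12 to 56 reads per library.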
